A study of Mus musculus with 2 samples.

Results

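The cytosolic ribosomal protein genes (RP genes below) are the 76 genes that encode most of the proteins of the ribosome in the cytoplasm. They were chosen by symbol alone from the protein-coding genes of GENCODE vM21, as Rpl or Rps followed by a digit, or Rplp0 to Rplp2, without kinases, names ending in l or another suffix, and pseudogene symbols. They are 76 of 21938 protein-coding genes, 46 for the large subunit (with the 3 stalk genes Rplp0, Rplp1 and Rplp2) and 30 for the small subunit, on 19 chromosomes. The liver of mouse embryos aged 13.5 days had been profiled by DNase-seq, which maps open chromatin by where the enzyme DNase I cuts. The mice had a mixed C57BL/6N,129 background and were wild type apart from multiple copies of the A85 YAC, a yeast artificial chromosome that both libraries carry. The labels do not say what that YAC holds. The 2 libraries are biological replicates 1 and 2 of 1 group, share a donor label, and have no labelled sex, so replicates were compared with each other and RP genes with other genes.

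Every ribosome needs 1 copy of nearly all of these proteins, and growing cells make them in step from genes scattered over the genome. Their promoters are compact, often lack a strong TATA box, and are known to carry sites for general activators such as the ETS factors, YY1 and SP1. Their mRNAs begin inside a run of pyrimidines, the terminal oligopyrimidine or TOP tract, through which growth signals set their translation. The embryonic liver is the main site where red cells form, and loss of 1 copy of some RP genes causes Diamond-Blackfan anaemia in humans, a failure of red cell production.

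Peaks of both replicates that overlapped were joined into shared regions, and a gene's promoter region is a shared region within 1 kb of any of its annotated starts. Where a gene had more than 1, the region with the highest product of both replicates' peak values was taken, and both values are from that region. Peak values are in the authors' units, whose scale is not stated. They are whole multiples of 1 step per library (100% within 0.05 of a step), so that a value can be read as a count with a 95% Poisson interval that covers counting error only. At RP gene promoters these counts ran from 230 to 1726 in replicate 1 and from 388 to 3015 in replicate 2. Erythroid marker genes (Gata1, Klf1, Tal1, Slc4a1, Epb42) had a shared promoter region in 5 of 5, hepatoblast markers in 3 of 5 with none at Alb or Hnf4a, macrophage markers in 0 of 4 and endothelial markers in 2 of 4. The liver is a mixture of these cells, and a promoter open in more cells and a promoter more open in each cell cannot be told apart.

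All 76 RP genes had a shared promoter region in the embryonic liver (100%, Wilson 95% interval 95.2 to 100), against 58.4% of all protein-coding genes. Among the mitochondrial ribosomal protein genes it was 78 of 78, and among the proteasome subunit genes 39 of 40. The typical RP promoter was more open than the typical open promoter, with a median value of 9.24 in replicate 1 and 7.38 in replicate 2, against 5.96 in replicate 1 and 5.05 in replicate 2 over all genes with such a region. The ratio of these medians averaged 1.51 ± 0.061 (SD over 2 replicates). Their median rank lay at the 69.6th percentile. In both replicates 57 RP genes were above the median of all genes, 13 were below it in both, and 6 were on different sides. In the top 10% of promoters in both replicates there were 12 RP genes (15.8%), against 7.55% of all genes with a promoter region.

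**Figure D1:**
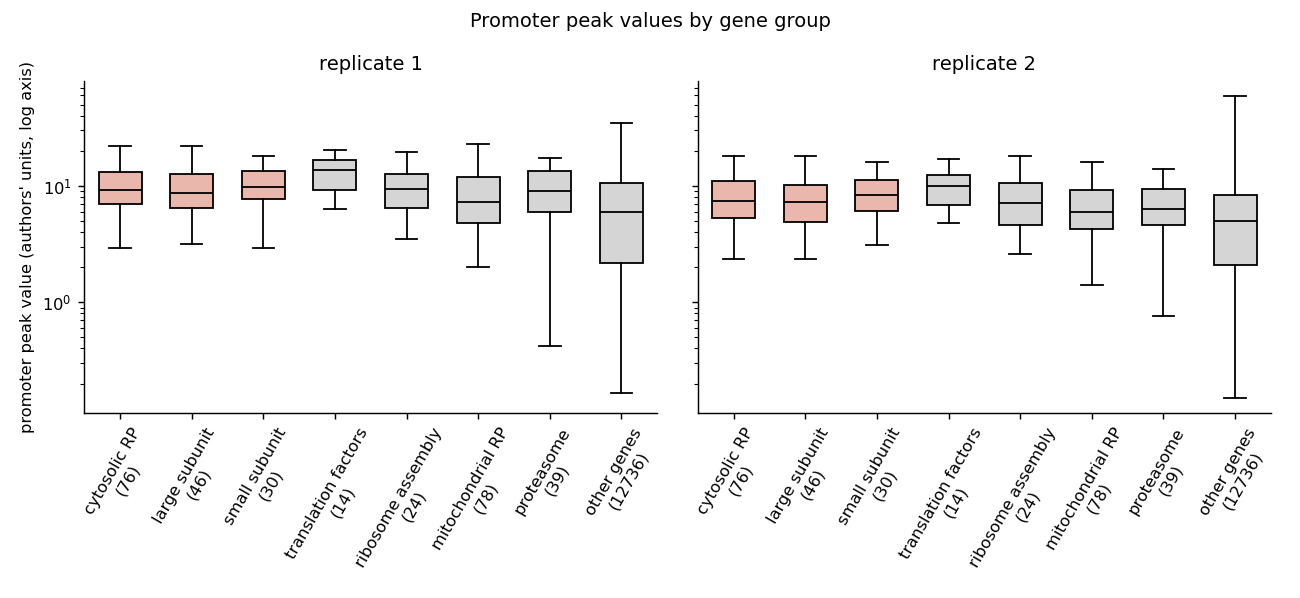
Promoter peak value (authors' units, log axis) by gene group in replicate 1 (left) and replicate 2 (right), with the number of genes that had a shared promoter region in brackets. Boxes span the middle 50% of genes with the median as a line, and whiskers reach the lowest and highest gene. The cytosolic RP box sits higher than that of the other genes in both replicates. Its lowest gene is at 2.91 in replicate 1 and 2.34 in replicate 2. Lowest and highest genes depend on group size, so whiskers of groups of unlike size cannot be compared directly.

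The values of RP promoters lay close together, as did those of other housekeeping groups. Their upper quartile was 1.90 times the lower quartile in replicate 1 and 2.08 times in replicate 2, against 4.87 times in replicate 1 and 3.98 times in replicate 2 among other genes. The same ratio was 2.26 in replicate 1 and 2.04 in replicate 2 for proteasome subunit genes, 2.47 in replicate 1 and 2.16 in replicate 2 for mitochondrial ribosomal protein genes, 1.97 in replicate 1 and 2.34 in replicate 2 for ribosome assembly genes, and 1.82 in replicate 1 and 1.79 in replicate 2 for translation factor genes. From the lowest to the highest RP gene the values differed 7.504-fold in replicate 1 and 7.77-fold in replicate 2. The small subunit had medians of 9.87 in replicate 1 and 8.31 in replicate 2, and the large subunit medians of 8.75 in replicate 1 and 7.21 in replicate 2. The 14 genes for translation factors and other TOP mRNAs, such as Eef2, an elongation factor, and Pabpc1, the poly(A) binding protein, had medians of 13.6 in replicate 1 and 10.1 in replicate 2, and 5 of them were in the top 10%. The 24 ribosome assembly genes, such as Nop56 of the box C/D snoRNA particles, had medians of 9.38 in replicate 1 and 7.11 in replicate 2. Mitochondrial ribosomal protein genes were at 7.21 in replicate 1 and 6.01 in replicate 2, and proteasome subunit genes at 9.05 in replicate 1 and 6.27 in replicate 2. All 14 translation factor genes and all 24 assembly genes had a shared promoter region.

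The highest RP promoter in both replicates was that of Rplp0, the protein at the base of the ribosomal stalk where elongation factors dock. Its region, chr5:115559281-115559540 on mm10, had a value of 21.8 (20.8 to 22.9) in replicate 1 and 18.2 (17.6 to 18.9) in replicate 2. Rpl7a followed at 20.8 in replicate 1 and 17.1 in replicate 2, and its intervals overlapped those of Rplp0 in both replicates. Next came Rps3a1 (17.6 and 16.1 in replicates 1 and 2), Rpl37 (18.3 and 13.8) and Rps12 (16.7 and 14.2). Rpl7a and Rpl37 encode large subunit proteins, Rps3a1 and Rps12 small subunit proteins, and all 4 genes hold snoRNA genes. The other 2 stalk genes were in the middle of the order, Rplp1 at 9.37 in replicate 1 and 7.31 in replicate 2, and Rplp2 at 9.18 in replicate 1 and 8.34 in replicate 2.

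The lowest RP promoter by mean rank was that of Rpl6, with 3.16 (2.78 to 3.58) in replicate 1 and 2.34 (2.11 to 2.59) in replicate 2. Rps4x, a small subunit gene on the X chromosome, had 2.91 in replicate 1 and 3.08 in replicate 2, and so was the lowest in replicate 1. Rpl23a, a protein at the exit of the nascent chain tunnel, had 3.898 in replicate 1 and 2.96 in replicate 2. Rps26, at the mRNA exit channel, had 3.65 in replicate 1 and 3.60 in replicate 2. Rpl39, a small protein that lines the tunnel, had 5.24 in replicate 1 and 3.57 in replicate 2. These low members were still at the 29.4th percentile (Rpl6) or above among open promoters. Of the 75 pairs of neighbours in the order, 43 had overlapping counting intervals in both replicates, so the order is coarse.

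**Figure D2:**
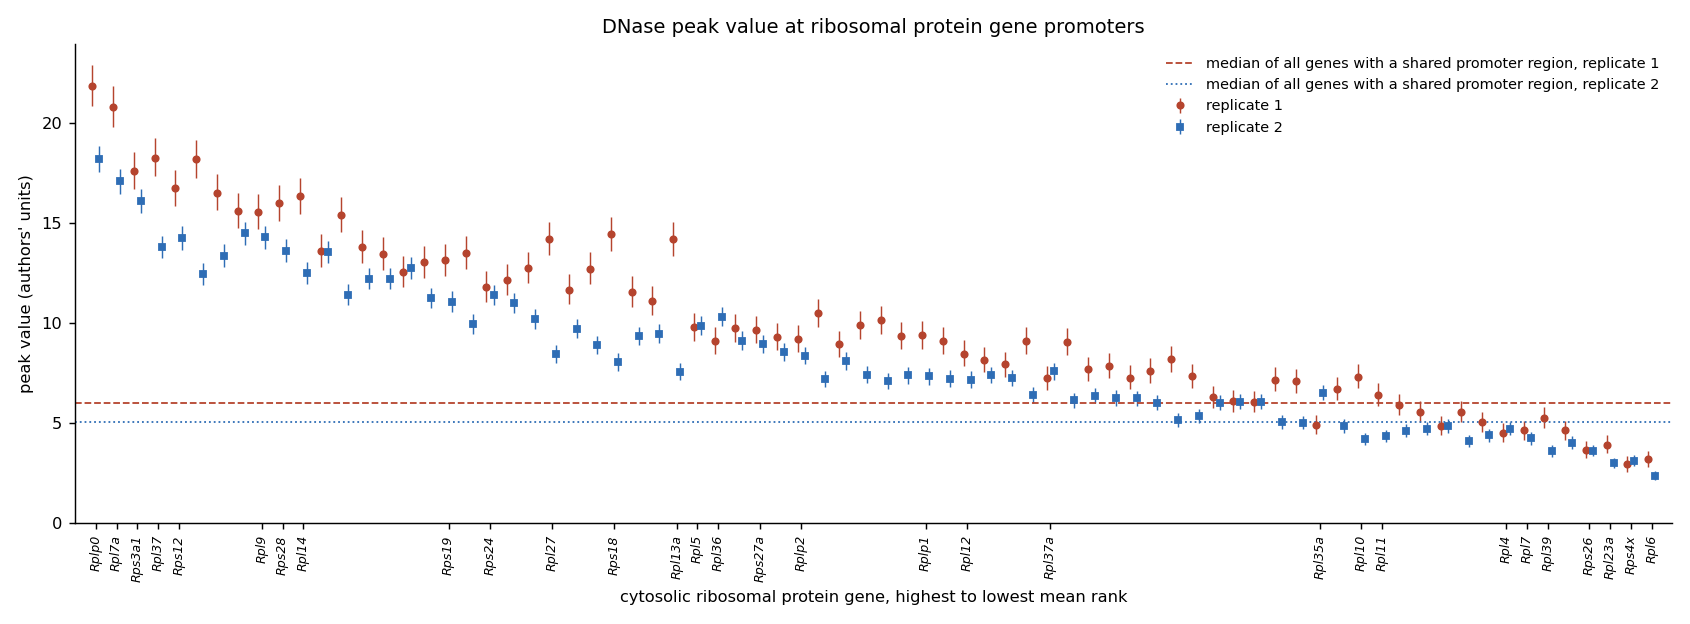
Peak value (authors' units) at the promoter of each of the 76 RP genes in replicate 1 (circles) and replicate 2 (squares), from the highest to the lowest mean rank, with some of the genes described in the text labelled. Bars are 95% Poisson intervals and the dashed and dotted lines are the medians of all genes with a shared promoter region, 5.96 in replicate 1 and 5.05 in replicate 2. The values fall gradually from Rplp0 to Rpl6, with no gap that would split the genes into classes.

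The base letters of both ends of this order are given to show how footprints fill them. Footprints are short stretches that a bound protein shields from DNase, and a shared footprint is one that overlaps between the replicates. The letters are from the RefSeq copy of the GRCm38.p6 (mm10) assembly on the coding strand, with shared footprints in capitals, and end at most 29 bases after the middle annotated start.
Rplp0, chr5:115559281-115559540, plus strand: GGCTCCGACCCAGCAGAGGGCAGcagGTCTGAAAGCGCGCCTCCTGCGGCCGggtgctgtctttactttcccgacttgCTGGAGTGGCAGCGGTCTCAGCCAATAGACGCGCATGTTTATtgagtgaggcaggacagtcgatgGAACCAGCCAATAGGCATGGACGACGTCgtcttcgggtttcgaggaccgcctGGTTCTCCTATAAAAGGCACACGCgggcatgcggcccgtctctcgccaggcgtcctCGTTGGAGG
Rpl6, chr5:121204361-121204510, plus strand: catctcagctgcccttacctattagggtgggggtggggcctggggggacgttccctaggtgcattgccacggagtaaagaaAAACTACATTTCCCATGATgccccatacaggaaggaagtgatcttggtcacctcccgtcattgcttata
Shared footprints covered 152 of the 260 bases of the Rplp0 stretch and 19 of the 150 bases of the Rpl6 stretch. The Rplp0 stretch is its whole promoter region, while the Rpl6 stretch is 150 bases of a region of 660 bp. These shares therefore do not compare whole regions. The Rplp0 stretch has TATAA inside a footprint and CCAAT, the NFY motif, inside 2 footprints on the coding strand.

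The middle annotated start, the median start of a gene's protein-coding transcripts, lay inside the highest promoter region of 65 RP genes (85.5%), against 61.8% of all genes with a region. The region's centre lay a median of 47 bp before that start in RP genes and 46.5 bp before it in other genes. It was within 100 bp of the start in 65.8% of RP genes and 48.3% of other genes. Regions had a median width of 260 bp in RP genes and in all genes, and ran from 180 to 660 bp among RP genes. A single promoter region was found for 47 RP genes, while 23 had 2 and 6 had 3. Of the bases 21 to 40 before the start, 97.4% had an FDR under 0.001 in both replicates in RP genes. The share was 74.7% in all other genes and 91.6% in the 3288 other genes whose values lay in the middle 50% of the RP values in both replicates.

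All 76 RP genes had a shared footprint in a promoter region, against 89.7% of all genes with a region. So did 3288 of 3288 other genes with like peak values, 78 of 78 mitochondrial ribosomal protein genes, 14 of 14 translation factor genes and 38 of 39 proteasome subunit genes. The number per gene had a median of 4 (mean 4.59) in RP genes and a median of 4 (mean 3.95) in all such genes, while the other genes with like peak values had a median of 5 (mean 5.25). Rps18, at the head of the small subunit, and Rps19, the gene most often mutated in Diamond-Blackfan anaemia, had the most with 10 each, and Rpl7 had 9. Rpl4 and Rps24 were among those with 8. Rps4x and Rpl41, which encodes the shortest ribosomal protein, had 1 each. Across the 76 RP genes, the Spearman correlation of the number of footprints with the promoter rank was 0.18, against 0.71 across 12812 genes, where depth enters both measures. RP values spanned 7.5-fold in replicate 1 and 7.77-fold in replicate 2, against 210-fold in replicate 1 and 391-fold in replicate 2 across the 12812 genes. The correlations therefore cover unlike ranges and cannot be compared directly.

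**Figure D3:**
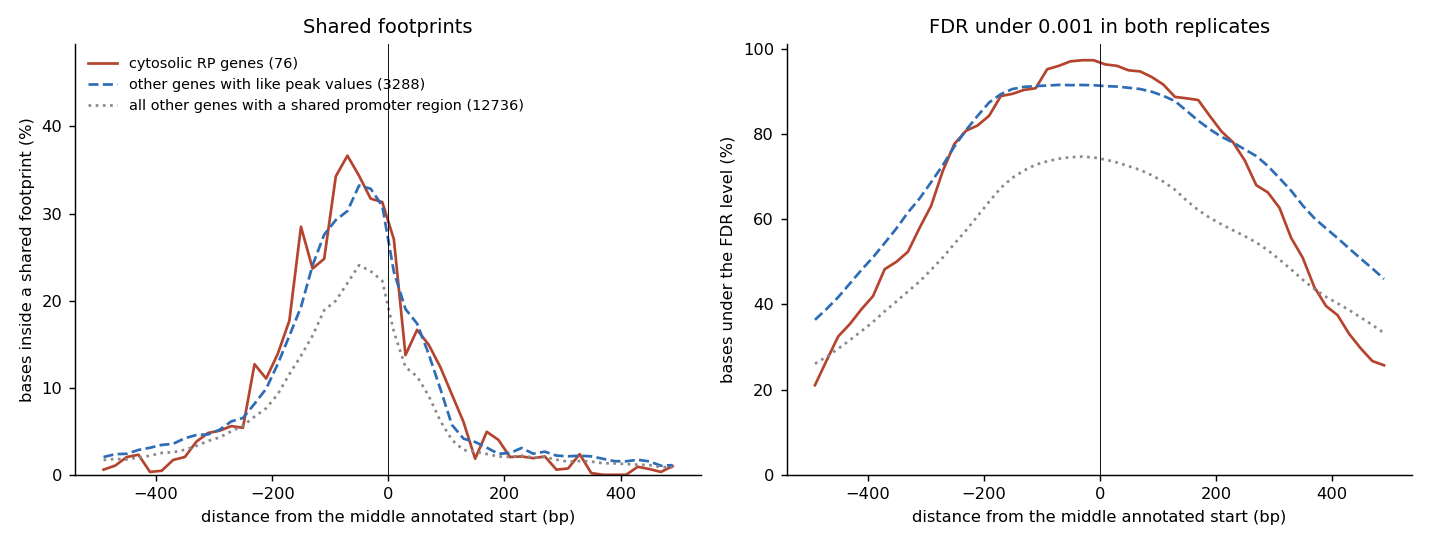
Share of bases (%) inside a shared footprint (left) and with an FDR under 0.001 in both replicates (right), in bins of 20 bp by distance (bp) from the middle annotated start, for the 76 cytosolic RP genes (solid), 3288 other genes with like peak values (dashed) and all 12736 other genes with a shared promoter region (dotted). In RP genes the footprint share was highest, at 36.6%, 61 to 80 bases before the start.

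Just before the start, footprints were more frequent in RP genes than in genes of like openness at some distances and not at others. At 61 to 80 bases before it, 36.6% of bases lay in a shared footprint in RP genes, against 30.3% in the genes with like peak values and 22.0% in all other genes. At 141 to 160 bases before it, the shares were 28.5% in RP genes, 19.3% in the genes with like peak values and 13.7% in all other genes. RP genes were below the genes with like peak values at 101 to 120 bases before it (24.8% against 27.6%) and at 21 to 40 bases before it (31.7% against 32.9%). At 20 to 39 bases after it, RP genes had 13.8%, the genes with like peak values 19.03% and all other genes 12.4%. A median of 33.7% of the bases of RP promoter regions lay in footprints, against 35% in the genes with like peak values and 26.5% in other genes. Promoter regions of RP genes had a median GC content of 60.4%, against 65.4% in other genes.

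Motifs were searched on both strands as fixed letters in the 300 bases around the middle start (250 before and 50 from it on) and in shared footprints with 5 bp on each side. A match is no measure of binding. The ETS core CCGGAAG was in the 300-base promoter of 29 RP genes (38.2%), against 11.3% of all genes and 17.6% of genes with a promoter region. Inside a shared footprint it was found in 15 RP genes (19.7%), against 12.6% of all genes with a promoter footprint, 16.7% of the other genes with like peak values and 15.6% of other genes in the middle 50% of the RP genes' GC content. With no extension of the footprints it was found in 6 RP genes (7.89%), against 8.44% of all genes, so the direction turned. Among the 15 were Rpl8, Rpl11, Rpl15, Rpl27a, Rpl30, Rpl31, Rpl37, Rplp1, Rps2, Rps7, Rps18, Rps21 and Rps25. The footprints of 6 of them are given to show the ETS core (in capitals, CTTCCGG where it reads on the other strand) with its surroundings.
Rpl37, chr15:5116583-5116606, plus strand: agacccgCCGGAAGtagtttcctg
Rpl27a, chr7:109519021-109519048, plus strand: cggggCTTCCGGgggcgggcgccaccgg
Rps2, chr17:24719923-24719945, plus strand: gtatttatacgtcCTTCCGGctg
Rps21, chr2:180257271-180257315, plus strand: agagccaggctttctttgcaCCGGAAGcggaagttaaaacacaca
Rpl15, chr14:18271022-18271055, minus strand: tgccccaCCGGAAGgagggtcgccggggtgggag
Rps18, chr17:33955812-33955835, minus strand: agagaaggccgaaCCGGAAGttat
The ETS cores of these footprints lay 52 bases before the middle start in Rpl37, 118 in Rpl27a, 124 in Rps2, 83 in Rps21, 16 in Rpl15 and 142 in Rps18, so they held no fixed distance from it.

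The palindrome CTCGCGAG, listed as a motif of ZBTB33 and known as a site of BANP, was in the 300-base promoter of 9 RP genes (11.8%), against 1.16% of all genes and 1.83% of genes with a promoter region. It lay in a shared footprint in 8 RP genes (10.5%), against 1.85% of all genes with a promoter footprint. Among other genes with like peak values the share was 2.77%, and among other genes in the middle 50% of the RP genes' GC content 2.17%. Among them were Rpl10a, Rpl12, Rpl17, Rpl26, Rps6, Rps19 and Rps28. The footprints of 6 of them are given with the palindrome in capitals.
Rps28, chr17:33824511-33824573, minus strand: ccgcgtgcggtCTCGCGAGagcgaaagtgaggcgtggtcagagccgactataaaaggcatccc
Rpl10a, chr17:28328524-28328558, plus strand: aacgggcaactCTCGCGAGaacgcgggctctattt
Rpl26, chr11:68901526-68901560, plus strand: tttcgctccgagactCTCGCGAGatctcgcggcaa
Rps19, chr7:24884556-24884603, plus strand: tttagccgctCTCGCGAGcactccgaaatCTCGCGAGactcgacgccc
Rps6, chr4:86857401-86857431, minus strand: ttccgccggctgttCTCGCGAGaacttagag
Rpl12, chr2:32961647-32961676, plus strand: gggccagcggttCTCGCGAGagctgagctt
Rps19 holds the palindrome at 2 places of the same footprint stretch, centred 62.5 and 81.5 bases before the middle start. Their promoter values were spread over the RP range, with 16.0 in replicate 1 and 13.6 in replicate 2 at Rps28, against 8.45 in replicate 1 and 7.14 in replicate 2 at Rpl12.

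The letters TATAA, the core of the TATA box, were in the 300-base promoter of 24 RP genes (31.6%), against 22.3% of all genes and 13.1% of genes with a promoter region. They lay in a shared footprint in 13 RP genes (17.1%), against 3.24% of all genes with a promoter footprint, 3.35% of other genes with like peak values and 3.36% of other genes with like GC content. Among them were Rpl3, Rpl10, Rpl23a, Rpl24, Rpl38, Rplp0, Rps2, Rps9, Rps14, Rps18, Rps26 and Rps28, and Rps28 alone had both this motif and the palindrome in shared footprints. At 20 to 40 bases before the middle start, where a TATA box works, TATAA stood on the coding strand in 5 RP genes (6.58%), against 1.6% of all genes with a promoter region. On the opposite strand of the same window it was in 1 RP gene (1.32%), against 0.656% of all genes with a region. The 90 bases around the start are given for 4 genes with a coding-strand TATAA (in capitals) in a shared footprint up to 60 bases before the middle start.
Rpl10, chrX:74270797-74270886, plus strand: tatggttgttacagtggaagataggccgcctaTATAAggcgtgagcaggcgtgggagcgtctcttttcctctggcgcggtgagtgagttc
Rplp0, chr5:115559477-115559566, plus strand: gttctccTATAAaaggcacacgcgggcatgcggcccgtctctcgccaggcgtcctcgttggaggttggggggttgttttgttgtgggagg
Rps28, chr17:33824463-33824552, minus strand: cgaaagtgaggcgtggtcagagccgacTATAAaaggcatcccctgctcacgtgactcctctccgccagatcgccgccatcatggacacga
Rps9, chr7:3703982-3704071, plus strand: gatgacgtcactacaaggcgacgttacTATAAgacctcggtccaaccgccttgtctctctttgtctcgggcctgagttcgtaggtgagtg
The motif's centre lay 26 bases before the middle start in Rpl10, 31 in Rps9, 31 in Rps28 and 51 in Rplp0. Annotated starts are not exact to the base.

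The other 8 motifs lay on either side of the background. In 300-base promoters TGACGTCA and ACTACAA were above all genes and above genes with a promoter region, and they were above the background in footprints. In 300-base promoters CCAAT was found in 22 RP genes (28.9%), against 38% of all genes and 37.7% of genes with a promoter region. TGACGTCA was in 6 (7.89%), against 2.4% of all genes and 3.36% of genes with a region. CACGTG was in 7 (9.21%), above the 7.65% of all genes but below the 9.98% of genes with a region. GCGCATGC was in 4 (5.26%), against 3.64% of all genes and 5.03% of genes with a region. AGATAA was in 5 (6.58%), below the 9.62% of all genes but above the 6.04% of genes with a region. The GC box GGGCGG, a site of SP1, was in 39 RP genes (51.3%), above the 44.4% of all genes but below the 62.9% of genes with a region. It lay in a shared footprint in 40 RP genes (52.6%), against 62.6% of all genes with a promoter footprint and 54.0% of other genes with like GC content. In footprints CCAAT was in 11 (14.5%), against 21.2% of all and 26.7% of those with like GC content. The cyclic AMP response element TGACGTCA was in 6 (7.89%), against 4.33%, and these were Rpl4, Rpl13, Rpl18, Rpl27a, Rps9 and Rps29. AAGATGGCG, the YY1 motif, was in the 300-base promoter of 6 RP genes (7.89%), against 2.06% of all genes and 3.37% of genes with a promoter region. In a shared footprint it was found in 1 alone, Rpl23a (1.32%), against 2.34%. ACTACAA, the ZNF143 motif, was in the 300-base promoter of 8 (10.5%), against 3.65% of all genes and 4.04% of genes with a promoter region. It was in a shared footprint of 3 (3.95%), against 1.69%. The E-box CACGTG was in footprints of 4 (5.26%), against 5.7%, the NRF1 motif GCGCATGC in 4 (5.26%), against 6.93%, and the GATA motif AGATAA in 2 (2.63%), against 1.89%. No footprint of 15 RP genes held any of the 11 motifs, among them Rpl6 and Rps4x at the low end of the order and Rps12 and Rpl9 at the high end. The like share over all genes was not computed, so this count cannot be called high or low.

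**Figure D4:**
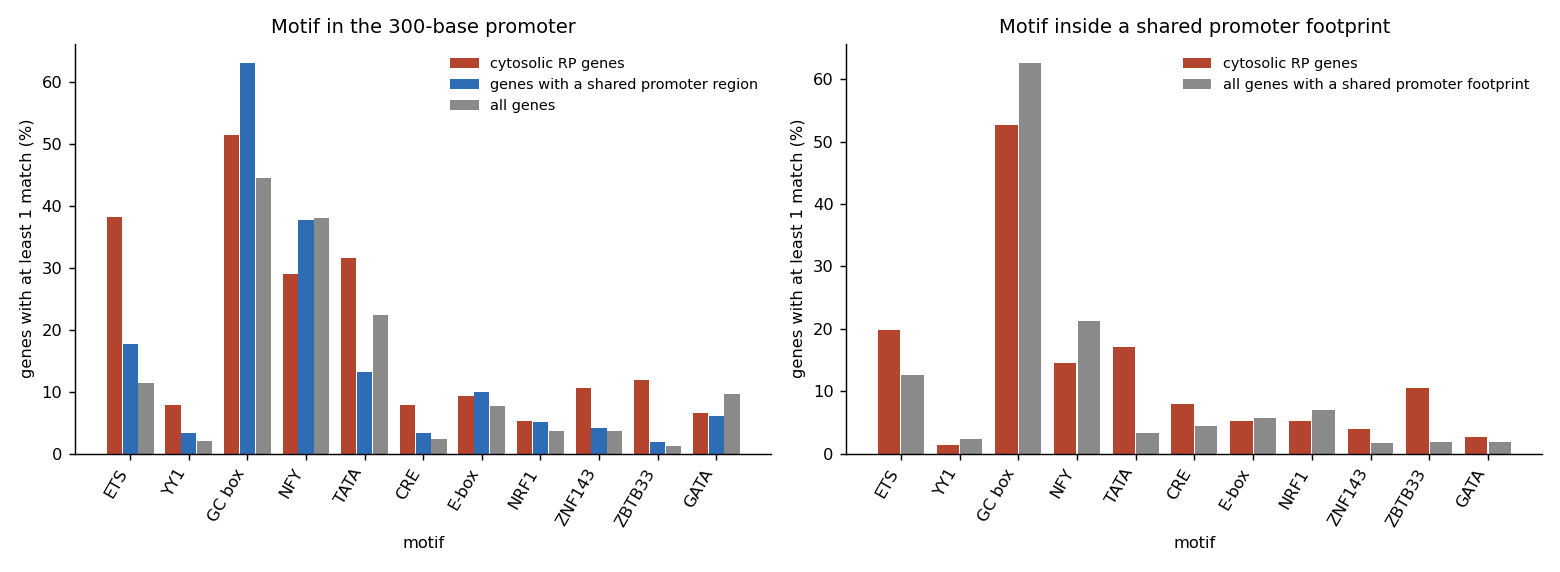
Share of genes (%) with at least 1 match of each motif in the 300-base promoter (left) and inside a shared promoter footprint (right), for cytosolic RP genes, genes with a shared promoter region (left panel) and all genes (left) or all genes with a promoter footprint (right). The ETS, TATA, ZBTB33, CRE and ZNF143 bars of the RP genes stand above the others in both panels. In footprints they reach 19.7%, 17.1%, 10.5%, 7.89% and 3.95%. Without extension of the footprints the ETS share is 7.89% in RP genes and 8.44% in all genes.

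Pyrimidine runs were frequent at the starts of RP genes, on the coding strand alone. Within 50 bases of the middle start, 62 RP genes (81.6%) had a run of at least 7 C or T on the coding strand, against 44.9% of all genes with a promoter region. On the opposite strand 25 RP genes (32.9%) had such a run, against 49.8% of all genes with a region. The longest coding-strand run had a median of 10 bases in RP genes and 6 in other genes, ran from 4 to 21 bases among RP genes, and reached 10 or more in 44 of them. It was longer than the longest opposite-strand run in 62 RP genes, shorter in 12 and equal in 2. The strands were not compared gene by gene over other genes, and their share with 10 or more is not given. These counts therefore stand without a background. The 14 translation factor and TOP genes had a coding-strand run of at least 7 in 13 (92.9%). They were listed for their TOP tract, so a high share follows from that choice. Mitochondrial ribosomal protein genes had such a run in 34 of 78 (43.6%), proteasome subunit genes in 15 of 39 (38.5%) and the other genes with like peak values in 43.0%. The runs of 6 RP genes, among the longest, are given in capitals with 10 bases on each side.
Rpl34, chr3:130730325-130730364, minus strand: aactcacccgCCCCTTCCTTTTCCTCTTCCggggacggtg
Rps24, chr14:24490706-24490744, plus strand: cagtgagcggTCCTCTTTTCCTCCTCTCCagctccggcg
Rpl27, chr11:101442406-101442441, plus strand: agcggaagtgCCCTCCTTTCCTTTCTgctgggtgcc
Rpl22, chr4:152325844-152325878, plus strand: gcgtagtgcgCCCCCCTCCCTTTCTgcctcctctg
Rpl13a, chr7:45128720-45128753, minus strand: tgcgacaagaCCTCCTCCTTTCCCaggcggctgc
Rpl26, chr11:68901577-68901610, plus strand: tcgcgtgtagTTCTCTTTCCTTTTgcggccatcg
The run is 20 bases long in Rpl34, 19 in Rps24, 16 in Rpl27, 15 in Rpl22 and 14 in Rpl13a and Rpl26. It spans the middle start in Rpl34, Rps24 and Rpl22 and ends before it in Rpl27, Rpl13a and Rpl26. A run counted here therefore need not cover the first transcribed base. Of the highest promoters, Rpl7a had a run of 21 bases, while Rplp0 and Rps3a1 had none longer than 6.

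**Figure D5:**
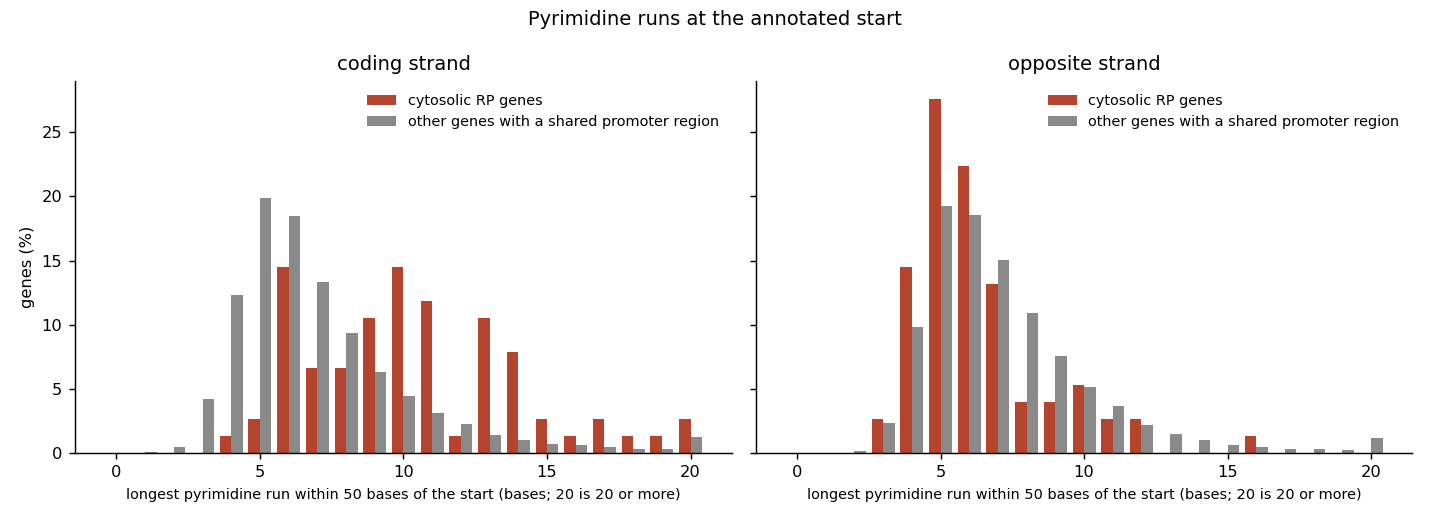
Share of genes (%) by the length (bases) of the longest pyrimidine run within 50 bases of the middle annotated start, on the coding strand (left) and the opposite strand (right), for the 76 cytosolic RP genes and 12736 other genes with a shared promoter region. The RP genes are shifted to longer runs on the coding strand, with a median of 10 bases against 6, and not on the opposite strand, where both medians are 6.

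The replicates ranked RP promoters alike. Across the 76 genes the Spearman correlation of the values was 0.93, and 0.97 across all 12812 genes with a promoter region. After the median log2 ratio of replicate 1 over replicate 2 of all shared regions (0.19) was set to 0, RP genes had a median of 0.07 with an SD of 0.24, against an SD of 0.44 over all genes. The middle 50% of ratios ran from -0.06 to 0.25 in RP genes and from -0.24 to 0.25 in all genes. In the other genes with like peak values it ran from -0.006 to 0.27, so the narrow spread was not particular to RP genes. The ratio was above 0 in 48 of the 76 RP genes, against 53.8% of all genes with a region. Among the other genes with like peak values it was above 0 in 2435 of 3288, a larger share than in RP genes. In RP genes it was highest at Rpl13a (0.72), whose region had 14.2 in replicate 1 and 7.54 in replicate 2. Rps18 followed at 0.66, Rpl10, a late-joining protein of the large subunit, at 0.62 and Rpl27 at 0.56. It was lowest at Rpl35a (-0.60), a Diamond-Blackfan anaemia gene, with 4.89 in replicate 1 and 6.49 in replicate 2. Rpl36 had -0.37, Rps4x -0.27 and Rpl37a -0.25. With 2 libraries of 1 group these ratios compare libraries, not conditions.

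Distal regions near RP genes were common. RP genes had a mean of 3.18 shared regions within 50 kb of a start and more than 1 kb from every protein-coding start, against 2.32 over all genes and 3.08 in the other genes with like peak values. At least 1 such region was found near 69 RP genes, against 71% of all genes, and 7 RP genes had none. Rpl14 had the most with 9, followed by Rps19 with 8 and by Rpl3, Rpl19, Rps3 and Rps16 with 7 each. Mitochondrial ribosomal protein genes had a mean of 2.38 and proteasome subunit genes 2.78. RP genes had a median of 4 gene starts within 50 kb, their own included, against 3 over all genes, and which gene a distal region serves was not tested.

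Promoters shared with a neighbouring gene were about as frequent in RP genes as in all genes. The highest promoter region lay within 1 kb of another protein-coding start in 15 RP genes (19.7%), against 20.8% of all genes with a region and 44.9% of mitochondrial ribosomal protein genes. One of these starts, at Rps10, belongs to RPS10-NUDT3, a readthrough of the same locus. Others were Med22 at Rpl7a, Lias at Rpl9 and Ndufa7 at Rps28, where the value cannot be assigned to 1 of the 2 genes.

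Small nucleolar RNA genes, which guide the chemical modification of ribosomal RNA, lay inside 29 RP genes, 55 in all. These host genes had medians of 9.78 in replicate 1 and 8.54 in replicate 2, and the 47 RP genes without snoRNAs medians of 9.05 in replicate 1 and 7.20 in replicate 2. Of the hosts 8 (27.6%) were in the top 10% of promoters in both replicates, and of the others 4 (8.51%), against the 7.55% of all genes given above.

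Of the human Diamond-Blackfan anaemia genes, 19 are among the RP genes. Their promoters had medians of 9.78 in replicate 1 and 8.43 in replicate 2, close to those of all RP genes, and 1 of them was in the top 10%. Rps19 had 13.1 in replicate 1 and 11.1 in replicate 2, Rpl5 had 9.78 in replicate 1 and 9.85 in replicate 2, and Rpl11 had 6.39 in replicate 1 and 4.32 in replicate 2. Rpl5 and Rpl11 form with 5S rRNA the particle that restrains Mdm2 when ribosome assembly fails. The 19 genes had a mean of 2.16 distal shared regions, against 3.18 over the 76.

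Ribosomal proteins whose symbols the rule does not match were open as well. Fau, a ubiquitin-like fusion of a small subunit protein, had 14.0 in replicate 1 and 13.3 in replicate 2. Rps27a, a member, is a fusion with ubiquitin and had 9.63 in replicate 1 and 8.92 in replicate 2. Rpsa had 11.3 in replicate 1 and 8.34 in replicate 2, and Rack1, a scaffold on the small subunit, had 5.99 in replicate 1 and 4.76 in replicate 2. Of the 25 protein-coding entries with an RP-like symbol that the rule left out, 10 of 10 S6 kinases and 0 of 6 pseudogene symbols had a shared promoter region. The remaining 9 split by gene. Rpl22l1 (13.3 in replicate 1 and 12.2 in replicate 2), Rpl36al (14.5 and 12.9), Rpl7l1 (9.01 and 6.93), Rps27l (11.3 and 9.76) and Rps19bp1 (8.89 and 7.03) had one. The paralogs Rpl3l, Rpl10l and Rpl39l, known from striated muscle or testis, and Rps27rt had none.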

How the data were processed

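The 2 DNase-seq libraries of embryonic liver are biological replicates 1 and 2 of 1 group, per the labels. The authors deposited for each library 2 peak lists with a signal per peak of unstated normalization, a per-base false discovery rate (FDR, a p-value type measure, all under 0.05) and footprint lists whose p-value or FDR column holds 0.01 throughout. All are on mm10 and derive from the alignment of that library alone, per the notes deposited with the files. No source used here names the aligner or the callers. The depth is known only as the counts that the signal steps give, since library totals are not given.

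The longer peak list (76130 peaks in replicate 1, 73852 in replicate 2) was used, and peaks that overlapped by at least 1 bp were merged into 99252 regions, of which 45831 were shared. Genes were those of GENCODE vM21 and sequences those of GRCm38.p6. Of the 76 genes, 56 have an entry in the RefSeq promoter table of the reference, and letters are printed for genes of that table alone. Words of 31 bases of the promoter regions occurred once in the assembly for a median word of each of the 76 regions, and the lowest share of such words was 70% (Rpl29). Code was tested on simulated intervals and motifs (Python 3.11.15, numpy 2.4.6, pandas 2.3.3, scipy 1.17.1, pysam 0.24.0).

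Members and gene lists were chosen with earlier results of these data known, so lists are described by counts and medians beside all genes, with no test. Genes named are the 6 highest and 6 lowest by mean rank, the 4 highest and 4 lowest replicate ratios, those with the most footprints and distal regions, and members of the lists, some of which are not reported here. Other genes named were chosen after their values were seen. Rpl7 (4.61 in replicate 1, 4.21 in replicate 2) and Rps26 have their highest peak in different regions in the replicates. Where nothing says that samples were from separate animals, the spread between replicates may be technical.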

Additional observations from a re-analysis of the deposited data

How the results depend on the processing

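The number of RP genes with a shared promoter region stayed at 76 under all alternatives but 1, with 72 when the gene's 5' end alone counted as its start, and those with a promoter footprint stayed at 72 to 76. The ratio of median promoter values (1.51) was 1.37 with the shorter peak list, 1.29 with the upper 50% of peaks and 1.57 with a promoter window of 2.5 kb. With all peaks of a single replicate it was 1.63 to 1.70. The mean number of distal regions (3.18, all genes 2.32) was 2.21 (1.54) with the shorter list, 2.43 (1.503) with the upper 50% of peaks, 1.25 (1.08) within 20 kb, 5.39 (4.25) within 100 kb, 2.42 (1.83) with regions 2.5 kb or more from starts, and 4.86 to 4.97 with a single replicate. RP genes with an ETS core in a footprint (15, 19.7%, all genes 12.6%) numbered 6 (7.89%, all genes 8.44%) with no extension of the footprints, which ends the excess, and 14 to 21 under the other alternatives. In alternatives chosen after seeing the data, with extensions of 0 and 10 bp, TATAA was in footprints of 10 (13.2%, all genes 2.16%) and 17 (22.4%, all genes 4.17%) RP genes and CTCGCGAG in 8 (10.5%, all genes 1.61%) and 10 (13.2%, all genes 2.01%). By construction these alternatives change how many peaks, starts or bases enter, and no other cause was tested. No paired analysis was possible because both libraries belong to 1 group. Depth limits the order of the genes, and annotated starts limit every distance.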

Other observations

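The 4 X-linked RP genes all stood in the lower part of the order. Rpl10 had a promoter value of 7.29 (6.71 to 7.91) in replicate 1 and 4.18 (3.87 to 4.50) in replicate 2. Rpl36a had 6.27 (5.73 to 6.84) in replicate 1 and 5.99 (5.62 to 6.37) in replicate 2. Rpl39 had 5.24 (4.75 to 5.77) in replicate 1 and 3.57 (3.29 to 3.87) in replicate 2, and Rps4x had 2.91 (2.55 to 3.31) in replicate 1 and 3.08 (2.82 to 3.36) in replicate 2. Their median was 5.75 in replicate 1 and 3.88 in replicate 2, against 9.35 in replicate 1 and 7.55 in replicate 2 over the 72 autosomal RP genes, whose lowest members (Rpl6 at the 29.4th percentile) reached as low. Other X-linked genes with a shared promoter region had medians of 2.97 in replicate 1 and 2.40 in replicate 2, against 6.10 in replicate 1 and 5.20 in replicate 2 over other autosomal genes, so the same direction was seen away from the RP genes. The X-linked RP genes were noticed after their values were seen, the sex of the embryos is not labelled, and no test was made.

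Distal regions found in a single replicate averaged 1.71 per RP gene for replicate 1 alone and 1.59 for replicate 2 alone, against 1.57 for replicate 1 alone and 1.38 for replicate 2 alone over all genes. The other genes with like peak values had more than RP genes, with 2.06 for replicate 1 alone and 1.82 for replicate 2 alone. Rpl29 had 3 such regions for replicate 1 alone and 16 for replicate 2 alone, and Rpl11 had 1 for replicate 1 alone and 10 for replicate 2 alone.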
